A study of Mus musculus with 8 samples.

Results

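The genes of p53, of 6 of its targets and of the 3 Gadd45 stress proteins were followed in the left ventricle. The mice were wild-type or labelled as knockout for the microprotein gene Nbdy. The 10 genes were Trp53, Mdm2, Cdkn1a, Ccng1, Bax, Trp53inp1, Sesn1, Gadd45a, Gadd45b and Gadd45g, found by symbol through their Ensembl identifiers. All 10 were present among the 38293 genes of the count table, and all 10 were among the 13336 genes with enough counts to be tested. Poly(A) RNA was sequenced from 4 wild-type (WT) and 4 mORF4/NBDY knockout (KO) samples of left ventricle. The mice were untreated males of 8 weeks on a C57BL/6 background. Nbdy, also called mORF4, encodes a small protein that binds the mRNA decapping complex of processing bodies. How the KO allele was made and whether the mice were littermates is not stated in the labels. Nor do they state that each library came from its own mouse: "heart" stands here for 1 library, and the p-values measure the spread between these libraries, which may be technical.

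p53, the product of Trp53, is a transcription factor that accumulates when DNA is damaged or a cell is otherwise stressed. It switches on genes that arrest the cell cycle (Cdkn1a), promote death (Bax) or limit growth and oxidative stress (Sesn1), and it also switches on Mdm2, the ubiquitin ligase that returns p53 to a low level. The Gadd45 proteins are small stress-induced proteins that bind the replication clamp Pcna, the cell cycle kinase Cdk1 and the kinase Map3k4, which leads to the p38 and JNK pathways. Gadd45a is in part a p53 target, whereas Gadd45b and Gadd45g respond mainly to cytokines and other stress signals. In the heart, p53 activity is known from injury by oxidants, from lack of oxygen and from pressure load.

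The upstream sequences of 6 of the genes are shown, because the p53 targets with the steadiest levels (Mdm2, Bax, Ccng1), Cdkn1a, and the 2 Gadd45 genes whose values lay farthest apart can be set side by side for short motifs before their starts. RefSeq promoters on GRCm38.p6 were matched for 9 of the 10 genes, as 11 promoters, and the 250 bases before each start were searched on both strands. The half-site bound by p53 was present in 7 of these 11 promoters, against 7.13% of all 32851 promoters of the same length, and in none of those of Gadd45b and Gadd45g. Of the 2 Cdkn1a promoters only the upstream one matched, at 73 and at 51 bases before its start. The line shown for Cdkn1a has only the nearer match in capitals and begins inside the other. The motif TATAAA was present in 3 of the 11, those of Gadd45b, Gadd45g and Trp53, against 12.4% of all promoters. In Gadd45b and Gadd45g it began 46 and 27 bases before the start, on the strand of the gene. In Trp53 it lay on the other strand, 248 bases before the start. CCAAT, which can overlap neither of these motifs by more than a few bases, was present in 8 of the 11 and in 33.8% of all. No member promoter matched TGACGTCA (1.55% of all promoters), and of the members only Mdm2 matched TGTTTAC (3.17% of all). A match describes the letters in this window and is not a measured binding site. Several members were listed because they are p53 targets, and the motifs were chosen after the matches were seen. The shares set beside those of all promoters are therefore no test of enrichment. Capitals mark the p53 half-site in the first 4 lines and TATAAA in the last 2, each written 5′ to 3′ on the strand of the gene.
Mdm2, chr10:117710915-117710964, minus strand: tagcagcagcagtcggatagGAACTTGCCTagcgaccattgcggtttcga
Bax, chr7:45467070-45467119, minus strand: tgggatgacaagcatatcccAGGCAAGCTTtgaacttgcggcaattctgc
Ccng1, chr11:40755442-40755491, minus strand: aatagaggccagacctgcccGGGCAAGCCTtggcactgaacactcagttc
Cdkn1a, chr17:29090908-29090957, plus strand: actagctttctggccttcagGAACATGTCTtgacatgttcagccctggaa
Gadd45b, chr10:80930025-80930070, plus strand: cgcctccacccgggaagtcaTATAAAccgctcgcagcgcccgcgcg
Gadd45g, chr13:51846628-51846673, plus strand: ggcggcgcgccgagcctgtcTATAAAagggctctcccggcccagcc

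The libraries held 11101901 to 14699949 counts, and no member had fewer than 38 counts in any of them. Nbdy stood at 19.0 to 20.1 CPM (counts scaled to library size) in WT and at 9.58 to 10.4 CPM in KO, and passed the test (-0.97 ± 0.11 on the log2 scale, SE; edgeR adjusted p = 0.0060, and 0.056 without KO replicate 6). Nbdy transcript thus remained in KO, at a fitted 0.511 times the WT level. Summed markers of cardiomyocytes reached 58604 CPM or more in each library, while those of the atrium summed to at most 9.96 CPM and its marker Bmp10 was at 0 counts. WT replicate 2 stood apart in single genes: it held 260.5 CPM of Atf3, an immediate early gene, against 5.94 to 23.8 CPM in the other WT libraries. As a list, 23 immediate early genes were highest not there but in KO replicate 7. Differences of the members that changed sign or moved by over 1.5 times without WT replicate 2 are given with and without it. In bulk tissue, fewer cells of a type and less RNA per cell cannot be told apart.

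None of the 10 genes passed the test between genotypes, with edgeR's quasi-likelihood test and an adjusted p under 0.05 as the threshold. Over all genes tested 0.0225% passed. The adjusted p of the members ran from 0.652 (Gadd45b) to 0.986 (Cdkn1a). At an unadjusted p under 0.05 there were 3 members, all of them Gadd45 genes, against 6.4% of all genes tested, and DESeq2 and limma-voom passed 0 members as well. The log2 fold changes of the 10 were positive for 3 and negative for 7, with a median of -0.09 beside -0.0032 over all genes tested. Only in Gadd45b did the values of the 4 KO libraries not overlap those of the 4 WT libraries, a separation that 4.12% of all genes tested had in either direction. Without WT replicate 2 it was again Gadd45b alone, beside 6.1% of all genes.

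**Figure D1:**
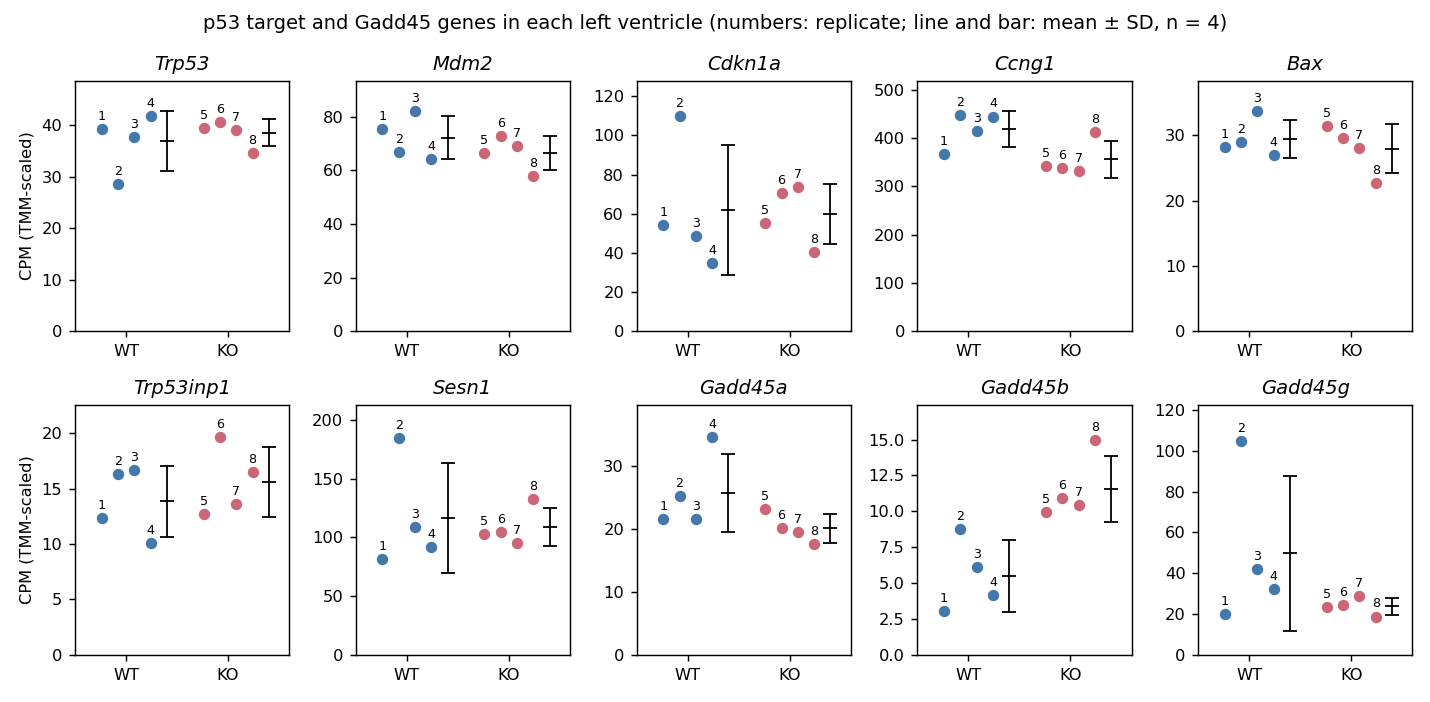
Level of each of the 10 genes in CPM (y axes, from 0) in the 4 WT and 4 KO left ventricles; each point is 1 library with its replicate number, and the line and bar beside the points are the mean and SD. WT replicate 2 is the highest library for Cdkn1a, Ccng1, Sesn1 and Gadd45g, and Gadd45b is the 1 gene whose groups do not overlap.

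The level of Trp53 itself did not differ between genotypes beyond the spread between libraries. Trp53 (chromosome 11, 69580359 to 69591873, plus strand) stood at 39.3, 28.5, 37.7 and 41.8 CPM across the WT hearts (replicates 1 to 4, in order). The KO hearts (replicates 5 to 8) stood at 39.4, 40.7, 39.1 and 34.7 CPM. WT replicate 2 was the lowest of all 8 libraries, and the other 7 lay close together. WT averaged 36.8 ± 5.80 CPM and KO 38.4 ± 2.62 CPM (SD, n = 4 for both). KO against WT came to 0.06 ± 0.13 on the log2 scale (SE; 95% interval -0.21 to 0.34; edgeR adjusted p = 0.950). It turned to -0.04 without WT replicate 2.

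Mdm2, the ubiquitin ligase that limits p53, also overlapped between genotypes. It lies on chromosome 10 from 117688875 to 117710758, on the minus strand. Its levels were 75.5, 67.0, 82.1 and 64.4 CPM over the WT hearts, against 66.3, 72.9, 69.0 and 57.8 CPM over the KO hearts. The groups overlapped, with the highest value in WT replicate 3 and the lowest in KO replicate 8. The difference of -0.12 ± 0.12 on the log2 scale (SE; 95% interval -0.37 to 0.13) did not pass (edgeR adjusted p = 0.874). It was -0.055 without WT replicate 3 and -0.057 without KO replicate 8.

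Cdkn1a, which encodes the cyclin-dependent kinase inhibitor p21, varied more between hearts of 1 genotype than between genotypes. Cdkn1a is on chromosome 17, plus strand, from 29090976 to 29100727. The WT hearts contained 54.2, 110.0, 48.5 and 34.6 CPM and the KO hearts 55.4, 70.6, 73.7 and 40.3 CPM. WT replicate 2 was the highest of all libraries and WT replicate 4 the lowest. Averages of 61.8 ± 33.2 CPM (WT) and 60.0 ± 15.4 CPM (KO, both SD, n = 4) gave a difference of -0.04 ± 0.30 on the log2 scale (SE; edgeR adjusted p = 0.986). WT replicate 2 held 2.40 times the mean of the other WT libraries (45.8 ± 10.1 CPM, SD, n = 3), and without it the difference was 0.39 (adjusted p = 0.968). The 95% interval from all 8 hearts, from -0.68 to 0.60, covers changes of more than 1.5-fold in both directions.

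The death and cell cycle targets gave narrower estimates. Bax, the pore-forming protein of mitochondrial apoptosis, ran from 27.0 to 33.7 CPM in WT and from 22.8 to 31.4 CPM in KO, with a log2 fold change of -0.08 ± 0.13 (SE), or 0.0099 without KO replicate 8. Ccng1, the gene of cyclin G1 and one of the most responsive p53 targets in many tissues, showed 366.0, 446.7, 414.6 and 444.5 CPM over the WT hearts, and 342.3, 338.1, 330.9 and 412.0 CPM over the KO hearts. Of the 4 KO hearts, 3 lay below every WT heart, and KO replicate 8 lay within the WT range. On the log2 scale KO differed from WT by -0.23 ± 0.12 (SE; 95% interval -0.49 to 0.024; edgeR adjusted p = 0.777). Without KO replicate 8 the value was -0.31.

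The 2 targets that act on autophagy and growth signalling also overlapped between genotypes. Trp53inp1, a p53-induced protein of autophagy and cell death, ran from 10.1 to 16.7 CPM in WT and from 12.7 to 19.7 CPM in KO, with a log2 fold change of 0.17 ± 0.19 (SE), or 0.038 without KO replicate 6 and 0.042 without WT replicate 4. Sesn1, a sestrin that restrains the growth kinase complex mTORC1, was measured at 81.7, 184.4, 108.6 and 91.9 CPM over the WT hearts, and at 103.1, 104.7, 95.3 and 132.5 CPM over the KO hearts. WT replicate 2 was again far above the rest, at 1.96 times the mean of the other 3 WT hearts. Its change was -0.10 ± 0.22 on the log2 scale (SE; edgeR adjusted p = 0.954), or 0.21 without that library.

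Over the 7 genes of p53 and its targets, 2 log2 fold changes were positive and 5 negative, with a median of -0.08. The 95% intervals of 8 of the 10 members lay within a 2-fold change in either direction, and those of 6 within 1.5-fold. The intervals of Gadd45b and Gadd45g reached past 2-fold.

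**Figure D2:**
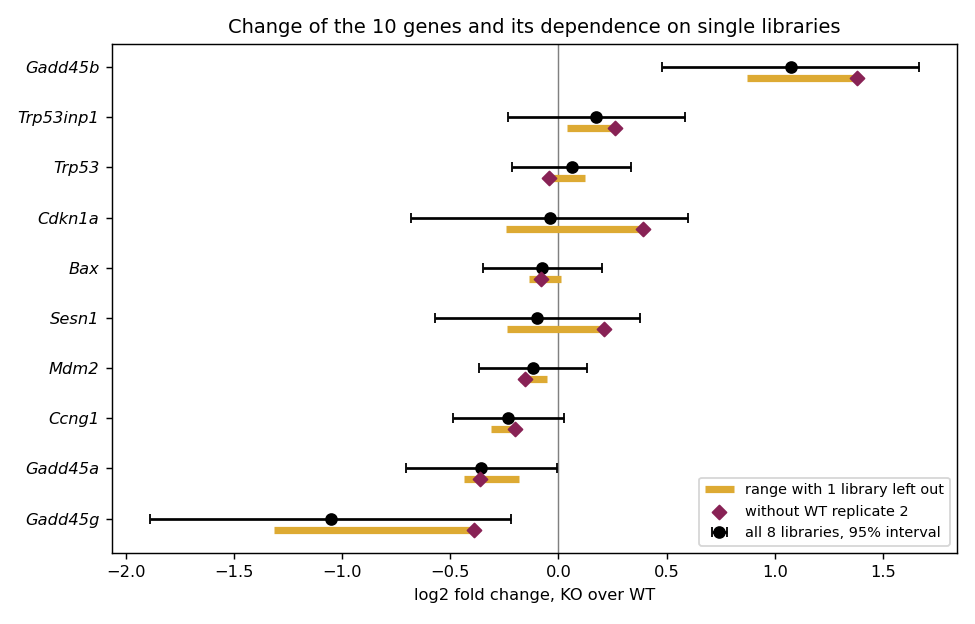
Log2 fold change of KO over WT (x axis) for each gene, with its 95% interval over all 8 libraries (black), the range when 1 library is left out (yellow bar) and the value without WT replicate 2 (diamond). Gadd45b stays between 0.87 and 1.38 with any 1 library left out, while Gadd45g moves from -1.05 to -0.39 and Cdkn1a from -0.04 to 0.39 without WT replicate 2.

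Gadd45b had the smallest p of the 10 genes over all 8 hearts, but it did not pass over all genes. Its difference was close in size to that of Gadd45g (-1.05), and without WT replicate 1 Gadd45g had the larger difference and the smaller p (-1.32 and 0.0017, against 0.87 and 0.0043). Gadd45b (chromosome 10, 80930073 to 80932204, plus strand) received 38, 95, 75 and 54 reads over the WT hearts, and 142, 154, 133 and 171 over the KO hearts. Scaled to library size, the WT hearts had 3.05, 8.76, 6.13 and 4.15 CPM, and the KO hearts 9.94, 10.9, 10.4 and 15.0 CPM. All 4 KO hearts lay above the highest WT heart, replicate 2, and KO replicate 8 was the highest of all. The averages, 5.52 ± 2.50 CPM for WT and 11.6 ± 2.30 CPM for KO (SD, n = 4 for both), went with a fitted 2.10-fold difference. On the log2 scale this was 1.07 ± 0.27 (SE; 95% interval 0.48 to 1.67). The unadjusted p of 0.00186 placed Gadd45b at rank 32 of all genes tested, and the adjusted p was 0.652 in edgeR. With any 1 library left out the difference stayed between 0.87 and 1.38 and the adjusted p stayed above 0.05 (lowest 0.198, without WT replicate 2). With 1 surrogate variable, an estimate of hidden variation whose largest weight was on WT replicate 2, the value was 1.43 and the adjusted p 0.0089. Over the 17 alternative fits the adjusted p of Gadd45b ran from 0.0089 to 0.952.

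Gadd45g lay in the opposite direction, and much of the size of its difference came with WT replicate 2. It is on chromosome 13 from 51846678 to 51848468, on the plus strand. The WT hearts ranged widely, at 19.8, 104.8, 42.2 and 32.2 CPM, and the KO hearts lay at 23.6, 24.3, 28.9 and 18.8 CPM. WT replicate 2 was 3.34 times the mean of the other WT hearts, and WT replicate 1 lay inside the KO range. Over all hearts the difference was -1.05 ± 0.38 on the log2 scale (SE; edgeR adjusted p = 0.734), and without WT replicate 2 it was -0.39. The coefficient of variation was 76.0% over the WT hearts and 17.3% over the KO hearts, and 35.6% over the WT hearts without replicate 2.

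Gadd45a, the family member most closely tied to p53, showed a small difference in the same direction as Gadd45g. It lies on chromosome 6 from 67035096 to 67037457, on the minus strand. Levels were 21.7, 25.3, 21.6 and 34.7 CPM over the WT hearts, and 23.2, 20.2, 19.6 and 17.7 CPM over the KO hearts. WT replicate 4 was the highest library, and of the KO hearts only replicate 5 reached into the WT range. This gave -0.36 ± 0.16 on the log2 scale (SE; edgeR adjusted p = 0.772), or -0.18 without WT replicate 4. Exons of Gadd45a share 337 bases with E230016M11Rik, a non-coding gene on the other strand with 24 to 52 counts per library; the strand setting of the counting is not known here.

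Compared per length of exon, Gadd45b made up a larger share of the Gadd45 family in every KO heart than in any WT heart. Gadd45g had the highest level of the 3 genes in all 8 libraries and Gadd45b the lowest. Gadd45b made up 6.17, 5.05, 7.41 and 5.25% of the summed Gadd45 CPM per kb over the WT hearts, and 15.8, 17.6, 15.5 and 26.5% over the KO hearts. The lowest KO share stood above the highest WT share, and the lowest share of all was that of WT replicate 2, where Gadd45b and Gadd45g were both high. The ratio of Gadd45b to Gadd45g averaged 0.0944 ± 0.0231 for WT and 0.374 ± 0.145 for KO (SD, n = 4 for both). These shares and this ratio were formed after the values had been seen and were given no test.

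**Figure D3:**
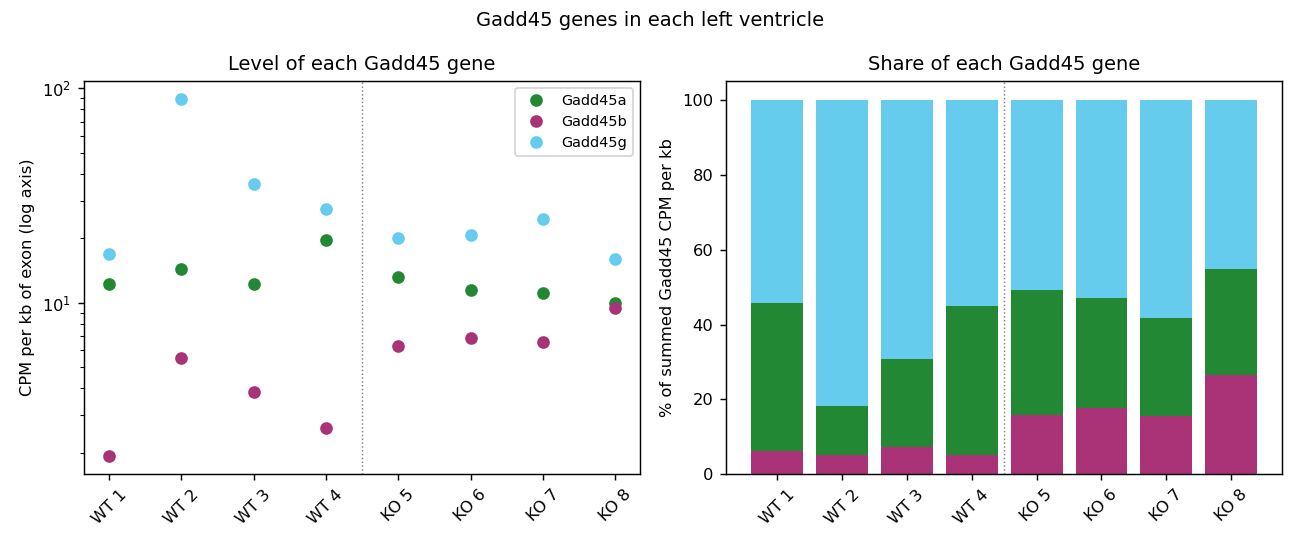
Left, level of the 3 Gadd45 genes in CPM per kb of exon (log axis) in each of the 8 libraries; right, percent of the summed Gadd45 level held by each gene. Gadd45b takes 5.05 to 7.41% in the WT libraries and 15.5 to 26.5% in the KO libraries.

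The 10 genes spanned a 48.4-fold range in level per length. Ccng1 led with 119.0 ± 10.7 (WT) and 101.3 ± 10.7 (KO) CPM per kb of exon (SD, n = 4 for both), and did not overlap the next gene in any library. Gadd45g, Sesn1, Bax, Cdkn1a, Mdm2, Gadd45a, Trp53, Gadd45b and Trp53inp1 followed in this order of mean level. From Gadd45g on, each gene overlapped its next neighbour over the 8 libraries. Trp53inp1 was lowest, at 2.14 ± 0.493 CPM per kb in WT and 2.41 ± 0.484 in KO. In KO, Gadd45b (7.28 ± 1.45 CPM per kb) did not overlap Trp53inp1 and did overlap Trp53. In WT, at 3.47 ± 1.58 CPM per kb, it overlapped Trp53inp1 and did not overlap Trp53. Exon lengths count the exons of all annotated transcripts, so levels per length are approximate.

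The genes differed in how they varied from heart to heart. Deviations were taken as log2 CPM minus the gene's own mean over the 8 libraries, and the likeness of 2 genes as the root mean square difference of these deviations, where a smaller value is closer. Mdm2 and Bax were the closest pair of members, at 0.0950 log2 units, followed by Trp53 with Mdm2 (0.192) and Trp53 with Bax (0.210). Gadd45b and Gadd45g were the farthest pair, at 1.05. WT replicate 2 was the highest library for 4 of the 10 members and above the gene's mean for 8. KO replicate 8 was the lowest library for 4, namely Mdm2, Bax, Gadd45a and Gadd45g, and the highest for Gadd45b.

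Acute stimulus genes varied between the same libraries. The mean deviation of 23 immediate early genes was -0.58, 0.56, 0.48 and 0.37 over WT replicates 1 to 4, against -0.69, -0.67, 0.67 and -0.14 over KO replicates 5 to 8. Cdkn1a and Gadd45g were, like this list, high in WT replicate 2. In some other libraries they parted from it: the list was highest in KO replicate 7, where Gadd45g was below its mean (-0.10), and high in WT replicate 4, where Cdkn1a was lowest (-0.73). Gadd45b was above its mean in all 4 KO hearts, including replicates 5 and 6 where the list was lowest. The mean deviation of 15 glucocorticoid and fasting targets was -0.40, 0.41, -0.34 and -0.23 over the WT hearts, against -0.10, 0.01, 0.26 and 0.40 over the KO hearts. For this list as for Gadd45b WT replicate 1 was lowest and WT replicate 2 was the highest WT library. They parted elsewhere: the list was highest of all 8 libraries in WT replicate 2, where Gadd45b (0.20) was below its value in every KO heart (0.38 to 0.97). The part of these programmes in the differences was not tested.

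**Figure D4:**
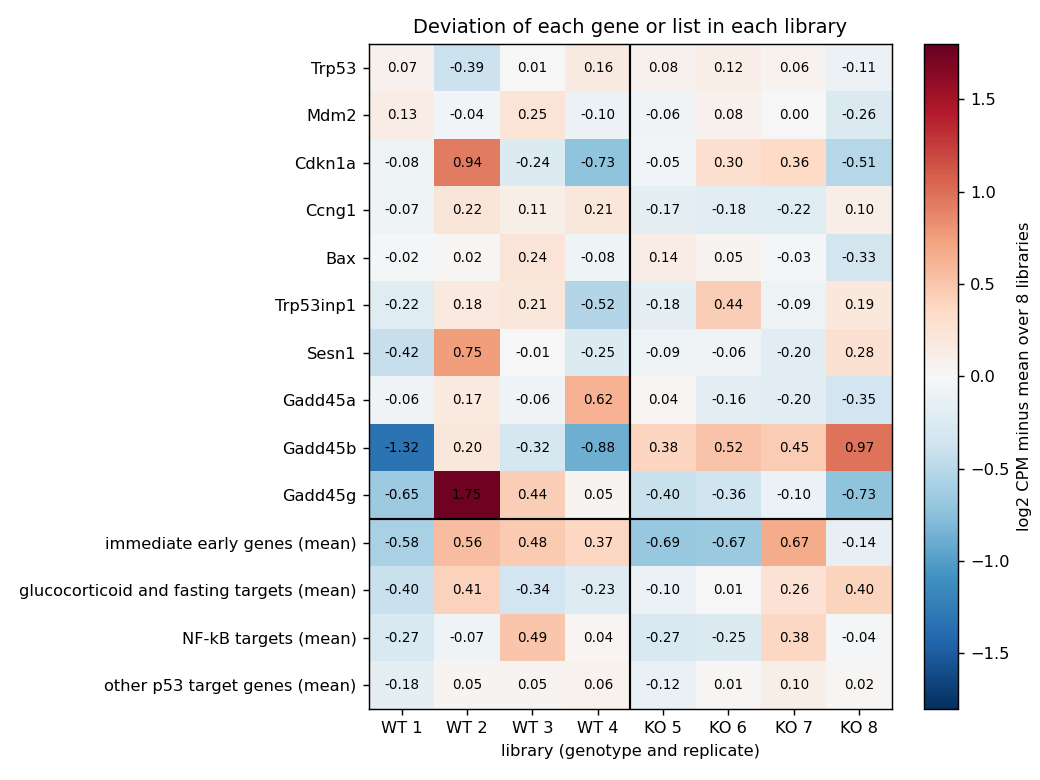
Deviation of each gene from its own mean over 8 libraries (log2 CPM, colour and printed value), with the mean deviation of 4 gene lists in the lower rows; columns are the WT and KO libraries. WT replicate 2 stands out for Cdkn1a (0.94), Sesn1 (0.75) and Gadd45g (1.75), and Gadd45b is above its mean in all 4 KO libraries.

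Among 11923 protein-coding genes of at least 1 CPM, the closest to Cdkn1a over the 8 libraries was Nupr1, a stress-induced nuclear protein, at 0.165 log2 units, where the median gene stood at 0.539. Chst3 (0.241) and Wdfy1 (0.245) came next. The closest to Gadd45b were Rhobtb1 (0.310), the survival kinase gene Pim3 (0.354) and Slc8a2, a sodium-calcium exchanger gene (0.380), with a median gene at 0.757. Pim3 had 64.1, 101.0, 91.3 and 64.9 CPM over the WT hearts, against 122.3, 110.9, 141.2 and 138.0 CPM over the KO hearts. Like Gadd45b it was higher in all 4 KO hearts than in any WT heart without passing (0.67 ± 0.16 on the log2 scale; edgeR adjusted p = 0.652). The closest to Gadd45g were Rcan1, the feedback inhibitor of calcineurin (0.325), Csrnp1 (0.352) and Trib1 (0.359). All 3 were, as Gadd45g was, highest in WT replicate 2, where Rcan1 reached 254.1 CPM against 63.3 to 84.5 CPM in the other 7 libraries. These genes were picked for likeness over the same 8 libraries, so the patterns they share with the members follow largely from that choice. A separation of the groups like that of Pim3 was found in 4.12% of all genes tested.

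Beyond the 10 members, no gene of the p53 and Gadd45 pathways passed over all genes. Of 42 further p53 target genes 39 were tested and 0 passed, with 20 log2 fold changes positive, 19 negative and a median of 0.0022 (-0.048 when WT replicate 1 was dropped, 0.022 without WT replicate 2). The DNA repair gene Xpc had the smallest p of this list and groups that did not overlap, with 13.1 ± 1.11 CPM for WT and 17.0 ± 0.651 CPM for KO (SD, n = 4 for both). Its difference of 0.38 ± 0.12 on the log2 scale had an edgeR adjusted p of 0.711. Groups without overlap were found in 4.12% of all genes tested, and Xpc was the 1 such gene among the 39. The kinase gene Plk3 stood at -0.58 ± 0.28, with 1 far higher library in each group, and the pro-apoptotic Bbc3 (Puma) at 0.44 ± 0.21. None of the 3 passed.

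Among 23 tested genes that control p53, 0 passed, 14 were positive and 9 negative, with a median of 0.09 that became 0.046 without KO replicate 6 and 0.16 without WT replicate 1. Mdm4, the relative of Mdm2 that binds p53 and blocks its activity, had 23.4, 12.7, 17.2 and 9.83 CPM over the WT hearts, against 20.6, 29.2, 26.0 and 31.5 CPM over the KO hearts. WT replicate 1 lay inside the KO range, and the other 3 WT hearts lay below it. Mdm4 stood at 0.76 ± 0.23 on the log2 scale (SE; edgeR adjusted p = 0.711), and at 1.02 without WT replicate 1 (adjusted p = 0.195). Ppp1r13l, an inhibitor of p53-driven death, stood at 0.37 ± 0.13, and the acetyltransferase gene Crebbp at 0.44 ± 0.23 (0.27 without WT replicate 2). Neither passed. The list's mean was high in WT replicate 1 and low in WT replicates 2 and 4.

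The other groups held no gene that passed either; values are log2 fold changes with SE. Of 11 tested partners of the Gadd45 proteins 5 were positive and 6 negative (median -0.07, and 0.028 without WT replicate 4), with Pcna at -0.38 ± 0.15, Cdk1 at -0.62 ± 0.35 and Map2k7, the JNK kinase bound by Gadd45b, at 0.08 ± 0.10. Of 16 tested Bcl2 family genes 10 were positive and 6 negative (median 0.03, and -0.019 without KO replicate 6), and the mitophagy receptor Bnip3 at -0.21 ± 0.13 and the death activator Bcl2l11 (Bim) at 0.33 ± 0.21 had, after Bbc3, the smallest p. Without WT replicate 2 these values were -0.11 and 0.19. Of 20 cyclins, cyclin-dependent kinases and their inhibitors 10 were positive and 10 negative (median 0.0077, and -0.11 without KO replicate 6), with Cdkn1c (p57), a relative of Cdkn1a, at -0.26 ± 0.11 and Ccnd3 at 0.19 ± 0.11.

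The closest relatives of the members, which include Mdm4 and Cdkn1c, did not pass either. Of 9 tested relatives 4 were positive and 5 negative, with a median of -0.12, or -0.045 without WT replicate 4. The cell cycle inhibitor Cdkn1b stood at -0.15 ± 0.12, Ccng2 at 0.10 ± 0.14, Bak1, the partner of Bax, at 0.03 ± 0.14 (-0.016 when scaled to library totals) and Bok at -0.26 ± 0.19. Trp53inp2 had a log2 fold change of -0.12 ± 0.11, and the sestrins Sesn2 and Sesn3 had 0.23 ± 0.23 (0.078 without WT replicate 2) and -0.28 ± 0.31. The p53 relatives Trp63 and Trp73 had too few counts to be tested.

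Of the programmes that can induce Gadd45 genes, the 15 NF-kB targets had a median of -0.08 (5 positive, 10 negative), which turned to 0.072 without WT replicate 3 (10 positive, 5 negative), with Tnfaip3 at -0.47 ± 0.37, Tnfaip2 at 0.17 ± 0.14 and Icam1 at 0.29 ± 0.26. The 23 immediate early genes had a median of -0.28 with 19 negative and 4 positive, which moved to -0.67 without KO replicate 7 and to -0.12 without KO replicate 5. Fosl2 stood at -0.44 ± 0.16, Ccn1 at -0.80 ± 0.39 and Atf3 at -2.32 ± 0.91, and without WT replicate 2 the value of Ccn1 was -0.35 and that of Atf3 -0.06. The 15 glucocorticoid and fasting targets had a median of 0.16 with 10 positive and 5 negative, which moved to 0.35 without WT replicate 2 and to 0.029 without KO replicate 8. Fbxo32, a muscle ubiquitin ligase (0.63 ± 0.16), and the clock gene Per1 (0.34 ± 0.11) did not overlap between groups, and Txnip stood at 0.31 ± 0.15. Over all genes tested 4.12% did not overlap. No gene of these 3 lists passed, with a smallest adjusted p of 0.652 in edgeR.

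**Figure D5:**
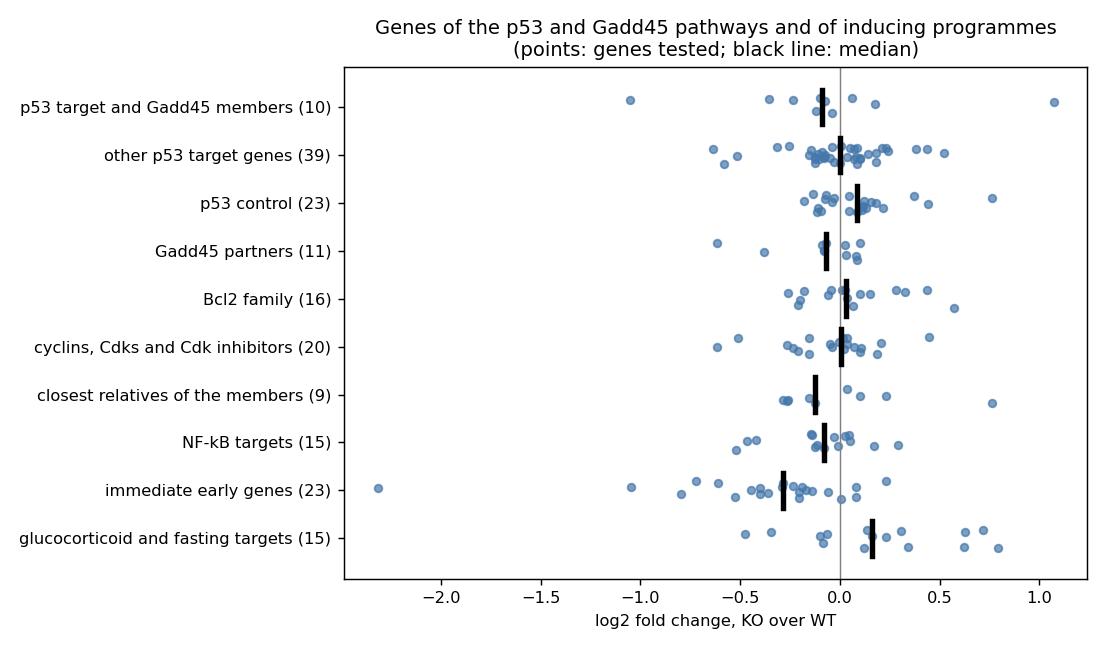
Log2 fold change of KO over WT (x axis) of every tested gene of each list, with the number tested in parentheses; points are genes and black lines are medians. The members' median lies at -0.09, the further p53 targets centre on 0.0022, and the immediate early genes lie lowest at -0.28.

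Summed markers of fibroblasts, macrophages, endothelium, blood and smooth muscle overlapped between the groups. The 7 fibroblast markers summed to 915.9 to 1168 CPM in WT and 736.9 to 956.7 CPM in KO, with all 7 log2 fold changes negative and none passing. The 7 macrophage markers, of cells that can express Gadd45b, summed to 157.7 to 246.5 CPM in WT and 169.0 to 256.7 CPM in KO. Those of endothelium summed to 1274 to 1559 CPM in WT and 1259 to 1552 CPM in KO, and the 6 lymphocyte markers to at most 5.23 CPM. The 7 blood markers summed to 817.1 to 1785 CPM in WT and 1149 to 2152 CPM in KO, with all 7 log2 fold changes positive and none passing. Their lowest sum was in WT replicate 1, where Gadd45b was also lowest. The next lowest was in KO replicate 6, where Gadd45b, at 10.9 CPM, lay above every WT heart. Smooth muscle markers summed to 813.8 to 1037 CPM in WT and 607.1 to 1225 CPM in KO, and fat markers were highest in WT replicate 2, at 15.3 CPM. The part of these cell types in the members' values was not tested.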

How the data were processed

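RNA came from left ventricles, and TruSeq stranded poly(A) libraries were prepared from it, per the labels' protocols. The submitters' processing notes name STAR 2.7.1a and the build GRCm38 (mm10). The authors deposited 1 table of raw counts per Ensembl gene, not normalized, with a column for each heart. Counting tool, strand setting and annotation release: not given in the sources used here.

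Columns were matched to samples by name, and 36429 of 38293 identifiers had a symbol in GENCODE M21 (GRCm38). After filterByExpr (minimum count 10) and TMM scaling, KO was tested against WT with edgeR 4.0.16 in R 4.3.3 (two-sided quasi-likelihood F test, no covariate). Adjusted p-values use the Benjamini-Hochberg method across the 13336 genes tested (in an alternative, across the genes its own fit tested), and 0.05 was the threshold. Each SE is the absolute log2 fold change over the root of its F. CPM use the scaled library sizes. The median SE was 0.16. The test was checked on simulated data.

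The members and lists were chosen with earlier results of these data known. Named are all members, Nbdy, the 3 genes of each other list with the smallest p where none passed, all tested relatives of the members, and the 3 genes most like Cdkn1a, Gadd45b and Gadd45g among those with a proper symbol. The motifs and the sequences shown were chosen after the matches were seen. Sequences are from RefSeq (GRCm38.p6).

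Alternatives tried were scaling by DESeq2 size factors or by library totals, the tools DESeq2 1.42.0 and limma-voom (limma 3.58.1), a robust fit, no count filter, a filter of 1 CPM in 4 libraries, dropping mitochondrial genes, adding 1 surrogate variable (sva 3.50.0) and leaving out each library.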

Additional observations from a re-analysis of the deposited data

Results flagged for a closer look

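Some of the genes named had 1 library far from the other 3 of its genotype. The gap was over 0.829 of the group's range (Dixon's 95% value for 4 samples), and this was found in 10 of 98 groups. Chance gives it in about 1 in 20 unselected groups. Many of these genes were picked for a small p or for likeness over the same libraries, so the 2 rates cannot be compared. Among the members the gap was found for Ccng1 in KO replicate 8, at 412.0 CPM against 330.9 to 342.3 in the other KO hearts. KO replicate 8 also stood apart for Txnip (851.8 CPM against 611.0 to 649.0) and, on the low side, for Tnfaip2 (41.7 CPM against 56.7 to 59.1) and Wdfy1 (21.4 CPM against 25.8 to 26.2). WT replicate 4 stood apart for Plk3 (23.0 CPM against 12.8 to 14.3) and Trp53inp2 (526.8 CPM against 415.5 to 430.4). KO replicate 7 held 18.4 CPM of Plk3 against 7.79 to 8.30. WT replicate 3 held 43.5 CPM of Icam1 against 23.8 to 24.6. WT replicate 2 held 260.5 CPM of Atf3 against 5.94 to 23.8, and 254.1 CPM of Rcan1 against 69.3 to 84.5.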

How the results depend on the processing

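Over all genes, 3 passed, and 13 with DESeq2, 10 without a filter and 5 with 1 surrogate variable; with 1 library left out the count was lowest at 2 without KO replicate 6, reached 6 when WT replicate 4 was dropped, and was 5 without WT replicate 1. Of the members 0 passed in every alternative except with 1 surrogate variable, where 1 did (Gadd45b, log2 fold change 1.43). No gene of the other lists passed in any alternative run. With 1 library left out, 1 to 3 members had groups that did not overlap (3 without WT replicate 1, where 11.2% of all genes tested had none), a count added after the data were seen. Of 170 alternative values of the members 9 changed sign, in 4 genes, and the cause was not tested. With 1 library left out, Trp53 ran from -0.042 (without WT replicate 2) to 0.12, Cdkn1a from -0.24 to 0.39 (without WT replicate 2; 0.11 without KO replicate 8), Sesn1 from -0.24 to 0.21 (without WT replicate 2) and Bax from -0.14 to 0.0099 (without KO replicate 8). With 1 surrogate variable Trp53 stood at -0.030, Cdkn1a at 0.27 and Sesn1 at 0.20, and with limma-voom Cdkn1a stood at 0.058. Of the other named genes, Bak1 ran from -0.044 (without WT replicate 2) to 0.15 with 1 library left out, and stood at -0.016 with library totals and -0.020 with a surrogate variable. Tnfaip3 ran from -0.67 to 0.072 (without WT replicate 3) and Icam1 from -0.014 (without KO replicate 7) to 0.55. The members' median ran from -0.18 to -0.024 over the alternatives. Nbdy had an adjusted p of 0.056 without KO replicate 6. No paired analysis was possible because the WT and KO hearts share no replicate numbers. Gadd45b had 38 to 171 counts per library and an SE of 0.27, and Ccng1 at least 4218 counts and an SE of 0.12. The largest SE of the members, 0.38, was that of Gadd45g, with 215 to 1137 counts. What set the precision was not tested.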
